A study of Homo sapiens with 10 samples.

Results

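The translation factor eIF5A and the polyamine pathway that serves it were followed through 10 genes: EIF5A, EIF5A2, DHPS, DOHH, ODC1, AMD1, SRM, SMS, SAT1 and OAZ1. They are 10 of the 58395 genes counted in the human ovarian cancer line HeyA8, an established cell line, and all 10 had enough counts to be tested. EIF5A was chosen by its fall in siGGGGGC libraries: the study selected it at 24 h as an abundant gene that fell and held GCCCCC in its 3′ UTR. The other 9 genes were added by their function, with earlier results of these data known. Cells of all 5 groups received an siRNA duplex at 10 nM with the transfection reagent RNAimax in duplicate wells, and total RNA was sequenced after depletion of ribosomal RNA. Cells with the control siNT1 and with siGGGGGC were lysed at both 24 h and 48 h and those with siGGCAGU at 48 h alone, with 2 libraries per group. The passenger strand of the duplexes was modified with 2′-O-methyl groups to keep it out of the silencing complex. The medium was replaced at 24 h in the wells lysed at 48 h, so time and fresh medium cannot be told apart. The duplicates come from a single cell line, and their p-values measure the spread between wells and libraries. In bulk RNA, fewer cells and less RNA per cell cannot be told apart, and each value is a share of its library.

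eIF5A is a small protein that binds the ribosome when it stalls, for example on runs of proline, and helps peptide bonds form and chains end. It works only after a lysine has been turned into hypusine, an amino acid known from eIF5A alone. DHPS moves a part of the polyamine spermidine onto the lysine and DOHH then hydroxylates it. Polyamines are made from ornithine by ODC1, with AMD1 supplying the aminopropyl groups and the synthases SRM and SMS adding them. SAT1 acetylates polyamines for export or breakdown, and the antizyme OAZ1 binds ODC1 and sends it to the proteasome. EIF5A2 is a paralog of EIF5A with a lower level in most tissues and high levels in some ovarian and other cancers.

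The duplexes siGGGGGC and siGGCAGU are named after the 6mer seed of the guide strand, its positions 2 to 7, through which a guide pairs with messenger RNA as a miRNA does. siGGCAGU carries the miR-34a-5p seed, and the seed of siGGGGGC occurs in miR-1237-5p and miR-4488. Their mature sequences from RefSeq (GRCh38.p14) are shown because they carry the seeds, with bases 2 to 8 in capitals. The shared seed is bases 2 to 7, since base 8 is G in these miRNAs and A in the guides of the duplexes.
hsa-miR-34a-5p: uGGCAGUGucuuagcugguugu
hsa-miR-1237-5p: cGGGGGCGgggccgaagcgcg
hsa-miR-4488: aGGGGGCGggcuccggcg

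For siGGGGGC the 6mer that pairs with the seed is GCCCCC, and this word was present 5 times in the 3′ UTR of EIF5A, which is 653 bases long in the annotation (hg38, plus strand of chromosome 17). At least 5 copies were present in 1.64% of the longest annotated 3′ UTRs of 19607 protein-coding genes, and at least 1 copy in 29.61%. The copies of EIF5A are part of why the study selected it and are shown as a description. They are given 5′ to 3′ as the transcript reads, with the 6mer match in capitals.
EIF5A, 53 bases after the stop codon, chr17:7311855-7311876: ctgcagagGCCCCCtccccgag
EIF5A, 451 bases after the stop codon, chr17:7312253-7312274: ggggaccaGCCCCCtcgcctgc
EIF5A, 526 bases after the stop codon, chr17:7312328-7312349: ggggacctGCCCCCtcctcagg
EIF5A, 556 bases after the stop codon, chr17:7312358-7312379: agggccctGCCCCCatgggctt
EIF5A, 646 bases after the stop codon, chr17:7312448-7312463: aatatgaaGCCCCCaa
The copy at base 556 was an 8mer match to the duplex, in which the letters on both sides of the 6mer also fit the guide. The copies at bases 526 and 646 were 7mer matches, with a fitting letter on a single side, and those at bases 53 and 451 were 6mers. The window of the last copy ends with the annotated transcript.

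EIF5A2 held 1 copy of GCCCCC, also an 8mer, in a 3′ UTR of 4942 bases (minus strand of chromosome 3). The 8 other genes held 0 copies in the 3′ UTR, although DOHH had 1 in its coding sequence. For siGGCAGU the pairing word is ACTGCC, which was present in the 3′ UTR of AMD1 alone among the 10 genes, as 1 6mer match on the plus strand of chromosome 6, while 32.06% of genes held at least 1. In coding sequences ACTGCC was present once each in EIF5A2 and DOHH and in 2 copies each in ODC1 and SAT1.
EIF5A2, 798 bases after the stop codon, chr3:170892549-170892570: ttaactttGCCCCCaacgttta
AMD1, 880 bases after the stop codon, chr6:110894872-110894893: aatgaatgACTGCCcagaatga
A match is a description of the letters in these windows and not a measured site.

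**Figure D1:**
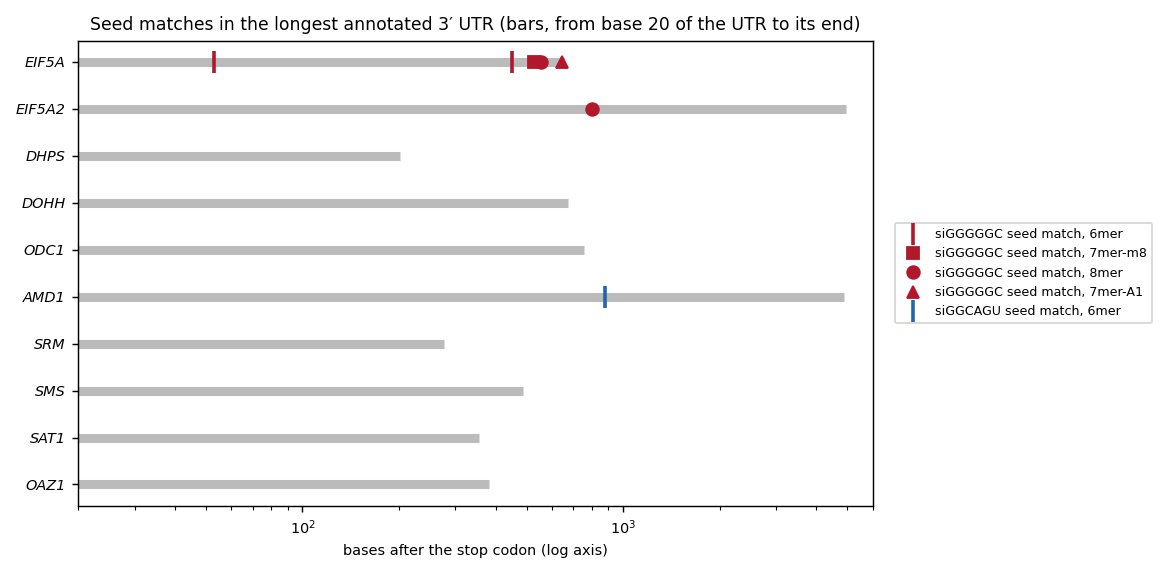
Seed matches in the longest annotated 3′ UTR of the 10 genes, by bases after the stop codon on a log axis; grey bars are the UTRs, red symbols matches to siGGGGGC and the blue mark the match to siGGCAGU. EIF5A carries 5 red symbols within 653 bases, EIF5A2 carries 1 at base 798, and AMD1 has the blue mark at base 880.

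Library totals ranged from 19781400 to 42429000 counts, rounded to 6 digits, of which the small RNA genes RN7SL2 and SNORD3A took 19.8% to 32.0%. The libraries of each group differed by more than sampling noise, since chi-square divided by its degrees of freedom was 2.18 to 36.5. The keratins KRT7, KRT8 and KRT18 and the ovarian factors PAX8 and WT1 were present, while MUC16 and CDH1 were at 26 counts or fewer. EPCAM was also low, at 8 to 51 counts. The 8 ovarian and epithelial markers summed at 48 h to 686 to 694 normalised CPM with siNT1 and 256 to 269 with siGGGGGC. There 5 of the 6 tested fell, beside 27.5% of all genes called lower. With siGGCAGU they summed to 767 to 913 CPM. At 24 h the sum was 721 to 735 CPM with siNT1 and 805 to 891 CPM with siGGGGGC. The 4 mesenchymal markers summed at 48 h to 2268 to 2379 CPM with siNT1 and 968 to 991 CPM with siGGGGGC, where 4 of 4 fell. Their sum was 2143 to 2362 CPM with siGGCAGU. At 24 h it was 1774 to 1789 CPM with siNT1 and 1347 to 1366 CPM with siGGGGGC. The part of these markers in the results below was not tested. The 4 leukocyte markers summed to 0 to 0.252 CPM over all libraries and the 4 endothelial ones to 0.817 to 2.87 CPM. Levels in CPM, which set a gene's raw count against its library total, were scaled by trimmed mean of M values (TMM) and are given ± SD over n = 2 libraries, and changes as log2 fold changes ± SE from edgeR's quasi-likelihood test. A gene passed the test when its Benjamini-Hochberg adjusted p over the 16905 genes tested was below 0.05.

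EIF5A (chr17:7306999-7312463, plus strand) was abundant in control cells and low in both siGGGGGC groups. At 24 h it stood at 208 and 212 CPM in the siNT1 libraries and at 52.3 and 46.6 CPM in the siGGGGGC libraries. At 48 h it stood at 346 and 337 CPM with siNT1 and at 31.5 and 29.7 CPM with siGGGGGC. The groups did not overlap at either time. The log2 fold change with siGGGGGC was -2.09 ± 0.14 at 24 h, which is 4.25-fold lower, and -3.48 ± 0.15 at 48 h, which is 11.1-fold lower. Both are given without a test, since the fall at 24 h selected the gene and the fall at 48 h was known when the genes were listed.

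With siGGCAGU at 48 h, EIF5A stood at 151 and 226 CPM, below both siNT1 libraries of that time. The log2 fold change was -0.86 ± 0.13, given without a test because it shares the siNT1 libraries with the fall at 48 h. The 2 siGGCAGU libraries differed 1.497-fold from each other, and the value was -0.60 to -1.18 over 18 alternative settings. In siNT1 cells the level of EIF5A at 48 h was above that at 24 h by 0.70 ± 0.13 on the log2 scale, also given without a test because the libraries at 24 h were used to select the gene.

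Ordered by mean level, EIF5A was highest with siNT1 at 48 h, at 341 ± 6.24 CPM. It was followed by siNT1 at 24 h with 210 ± 2.89 CPM and siGGCAGU at 48 h with 188 ± 52.9 CPM, whose libraries overlapped. Then came siGGGGGC at 24 h with 49.5 ± 4.05 CPM and at 48 h with 30.6 ± 1.27 CPM, with no overlap between neighbours. The exons of EIF5A overlap those of GPS2 on the opposite strand over 8.98% of their length, and the strand setting of the counting was not stated. EIF5AL1, a near-identical copy of EIF5A, was counted at 4.93% to 7.72% of the CPM of EIF5A in every library. EIF5AL1 thus stood at 11.8 and 12.8 CPM with siNT1 and at 2.72 and 3.03 CPM with siGGGGGC at 24 h. Reads may be split between the copies, or left out where they match both, so both values are uncertain to an unknown degree.

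EIF5A2, the paralog (chr3:170888418-170908644, minus strand), moved in opposite directions with the siRNAs. It stood at 60.6 and 62.5 CPM with siNT1 and at 46.5 and 48.0 CPM with siGGGGGC at 24 h. After 48 h it was at 48.8 and 49.96 CPM with siNT1, at 35.9 and 35.6 CPM with siGGGGGC, and at 136 and 118 CPM with siGGCAGU. All 5 groups were separate from each other. EIF5A2 fell with siGGGGGC by 0.38 ± 0.09 on the log2 scale at 24 h (edgeR adjusted p = 0.00833) and by 0.47 ± 0.09 at 48 h (adjusted p = 0.000422). With siGGCAGU it rose by 1.36 ± 0.09, or 2.57-fold (adjusted p = 5.73e-09). The direct comparison of siGGGGGC with siGGCAGU at 48 h gave -1.83 ± 0.09 (adjusted p = 3.46e-10). The fall at 24 h passed the test with all libraries but not when any of the 4 libraries compared was left out, where it was -0.34 to -0.40.

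**Figure D2:**
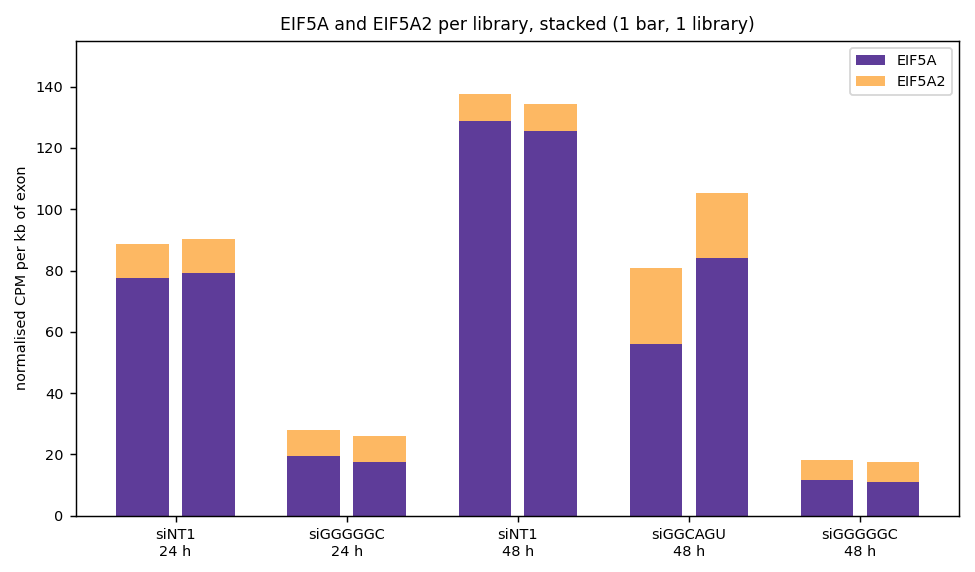
Levels of EIF5A (purple) and EIF5A2 (orange) in normalised CPM per kb of exon, stacked, with 1 bar for each of the 10 libraries. The orange part makes up 6.40% to 6.70% of the bars of siNT1 at 48 h and 35.6% to 36.7% of those of siGGGGGC at 48 h, where the whole bar is shortest.

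Compared per length, the level of EIF5A in CPM per kb of exon was 7.10 and 7.02 times that of EIF5A2 in the siNT1 libraries at 24 h. This ratio was 2.32 and 2.00 with siGGGGGC at 24 h. At 48 h it was 14.6 and 13.9 with siNT1, 1.81 and 1.72 with siGGGGGC, and 2.29 and 3.95 with siGGCAGU. Per kb, EIF5A remained the higher of the paralogs in all 10 libraries, a ranking that rests on the annotated exon lengths. In CPM alone EIF5A2 was the higher with siGGGGGC at 48 h, at 35.9 and 35.6 against 31.5 and 29.7. It was also the higher in siGGGGGC 24 h replicate 2, at 48.0 against 46.6 CPM. The sum of both paralogs was 136 ± 2.17 CPM per kb with siNT1 at 48 h, 93.0 ± 17.4 with siGGCAGU and 17.9 ± 0.51 with siGGGGGC (SD, n = 2). At 24 h it was 89.5 ± 1.32 with siNT1 and 27.0 ± 1.31 with siGGGGGC. The EIF5A2 share of the sum was thus raised in both siRNA groups at 48 h, to 20.2% and 30.4% with siGGCAGU and to 35.6% and 36.7% with siGGGGGC. These shares carry the fall of EIF5A that selected it and are a description.

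Of the hypusine enzymes, DOHH rose with siGGGGGC at 48 h and DHPS did not pass the test in any siRNA comparison. DHPS, the deoxyhypusine synthase (chr19:12675717-12681880, minus strand), stood between 12.2 and 16.5 CPM in the 10 libraries. Its log2 fold change was 0.00 ± 0.11 with siGGGGGC at 24 h, 0.06 ± 0.11 at 48 h and 0.02 ± 0.11 with siGGCAGU, and none of these passed the test. The 95% intervals lay within -0.29 to 0.35. Of the exon bases of DHPS 42.2% are shared with other genes, 38.8% with a gene on the same strand, which leaves its counts uncertain.

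DOHH, the deoxyhypusine hydroxylase (chr19:3490821-3500674, minus strand), stood at 19.5 and 19.6 CPM with siNT1 and 27.1 and 19.0 CPM with siGGGGGC at 24 h. At the later time it stood at 24.5 and 25.0 CPM with siNT1, at 34.5 and 40.6 CPM with siGGGGGC and at 13.04 and 24.8 CPM with siGGCAGU. The siGGGGGC libraries at 48 h were the highest, and the siGGCAGU libraries differed 1.90-fold from each other. DOHH rose with siGGGGGC at 48 h by 0.60 ± 0.20 (edgeR adjusted p = 0.0193). This call was lost without siGGGGGC 48 h replicate 2 (0.48) or without siNT1 48 h replicate 1 (0.57) or 2 (0.61), and with DESeq2 (0.61, adjusted p = 0.117), the adjusted p over all alternatives lying between 0.000282 and 0.151. With siGGCAGU the change of -0.36 ± 0.21 did not pass the test (adjusted p = 0.160). Without siGGCAGU replicate 2 it was -0.93 and passed (adjusted p = 0.000204), without replicate 1 it was 0.00, and with no filter on low counts it was -0.43 and passed (adjusted p = 0.00178).

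ODC1 (chr2:10439968-10448327, minus strand), which makes putrescine and is the first enzyme of the pathway, fell with siGGCAGU. Its libraries stood at 460.5 and 469 CPM with siNT1 and at 449 and 456 CPM with siGGGGGC at 24 h. At 48 h they stood at 432 and 451 CPM with siNT1, at 454 and 454 CPM with siGGGGGC, and at 226 and 195 CPM with siGGCAGU. The fall with siGGCAGU was 1.07 ± 0.09 on the log2 scale, 2.098-fold (edgeR adjusted p = 1.10e-07). With siGGGGGC the change was -0.04 ± 0.09 at 24 h and 0.04 ± 0.09 at 48 h, with a 95% interval of -0.19 to 0.27 at 48 h. The siRNAs differed from each other by 1.11 ± 0.09 (adjusted p = 7.27e-08).

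AMD1, the S-adenosylmethionine decarboxylase (chr6:110874770-110898879, plus strand), fell with siGGGGGC at both times and with siGGCAGU. It stood at 167 and 170 CPM with siNT1 and 130.3 and 126 CPM with siGGGGGC at 24 h. The libraries at 48 h were at 164 and 162 CPM with siNT1, 111 and 109.8 CPM with siGGGGGC and 63.4 and 80.7 CPM with siGGCAGU. The siRNA libraries lay below the siNT1 libraries of their time in each case. The log2 fold changes were -0.40 ± 0.10 with siGGGGGC at 24 h (edgeR adjusted p = 0.0118), -0.56 ± 0.10 at 48 h (adjusted p = 0.000218) and -1.17 ± 0.10 with siGGCAGU (adjusted p = 1.23e-07). The siGGCAGU fall was larger than that of siGGGGGC at 48 h by 0.61 ± 0.10 (adjusted p = 9.92e-05). The call at 24 h was lost when any of the 4 libraries compared was left out, with values of -0.36 to -0.41.

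SRM, the spermidine synthase (chr1:11054584-11060020, minus strand), had the largest fall among the 9 genes other than EIF5A with each siRNA at 48 h, from low counts. It stood at 5.24 and 6.40 CPM with siNT1 and 5.78 and 5.94 CPM with siGGGGGC at 24 h. At 48 h it stood at 9.03 and 6.79 CPM with siNT1, 1.98 and 2.03 CPM with siGGGGGC and 2.21 and 2.15 CPM with siGGCAGU. Its raw counts were 44 to 308 per library. SRM fell by 1.97 ± 0.19 with siGGGGGC (3.92-fold, edgeR adjusted p = 3.59e-07) and by 1.85 ± 0.18 with siGGCAGU (3.61-fold, adjusted p = 4.59e-07). The siRNAs differed from each other by -0.12 ± 0.22, with a 95% interval of -0.68 to 0.45. At 24 h the change with siGGGGGC was 0.01 ± 0.18.

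SMS, the spermine synthase (chrX:21940709-21994837, plus strand), fell with siGGGGGC at 48 h. It stood at 193 and 195 CPM with siNT1 and 174 and 176 CPM with siGGGGGC at 24 h. By 48 h the levels were 177 and 178 CPM with siNT1, 124 and 138 CPM with siGGGGGC, and 172 and 193 CPM with siGGCAGU. The siGGGGGC libraries at 48 h were the lowest of all 10. The change was -0.44 ± 0.09 with siGGGGGC at 48 h (edgeR adjusted p = 0.000582) and 0.04 ± 0.09 with siGGCAGU, which differed by -0.48 ± 0.09 (adjusted p = 0.000283). At 24 h it was -0.15 ± 0.09 and did not pass, but with only the libraries compared it was -0.17 and passed (adjusted p = 0.0175).

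SAT1, the spermidine and spermine acetyltransferase (chrX:23783173-23786210, plus strand), rose with siGGCAGU. It stood at 55.5 and 58.9 CPM with siNT1 and 38.9 and 41.1 CPM with siGGGGGC at 24 h. At 48 h it stood at 63.5 and 80.8 CPM with siNT1, 77.7 and 76.4 CPM with siGGGGGC and 219 and 201 CPM with siGGCAGU. The siGGCAGU libraries were above all others, and the siGGGGGC libraries lay within the siNT1 range at 48 h and below it at 24 h. The rise with siGGCAGU was 1.54 ± 0.11, or 2.91-fold (edgeR adjusted p = 1.00e-08). SAT1 fell with siGGGGGC at 24 h by 0.52 ± 0.11 (adjusted p = 0.00408), while at 48 h its change was 0.09 ± 0.11, which was 0.27 and passed without siNT1 48 h replicate 2 (adjusted p = 0.0384). The call at 24 h was lost without siGGGGGC 24 h replicate 1 (-0.47) or siNT1 24 h replicate 2 (-0.46).

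OAZ1, the antizyme (chr19:2269509-2273490, plus strand), stood at 404 and 419 CPM with siNT1 and 477 and 441 CPM with siGGGGGC at 24 h. The levels at 48 h were 386 and 402 CPM with siNT1, 511 and 533 CPM with siGGGGGC and 463 and 481 CPM with siGGCAGU. Every siRNA library lay above the siNT1 libraries of its time. OAZ1 rose by 0.40 ± 0.09 with siGGGGGC at 48 h (edgeR adjusted p = 0.000997) and by 0.26 ± 0.09 with siGGCAGU (adjusted p = 0.0199). The change of 0.16 ± 0.09 at 24 h did not pass. The siGGCAGU call was lost in 4 of the 18 alternatives, among them leaving out siGGCAGU replicate 2 (0.23) or siNT1 48 h replicate 1 (0.22).

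**Figure D3:**
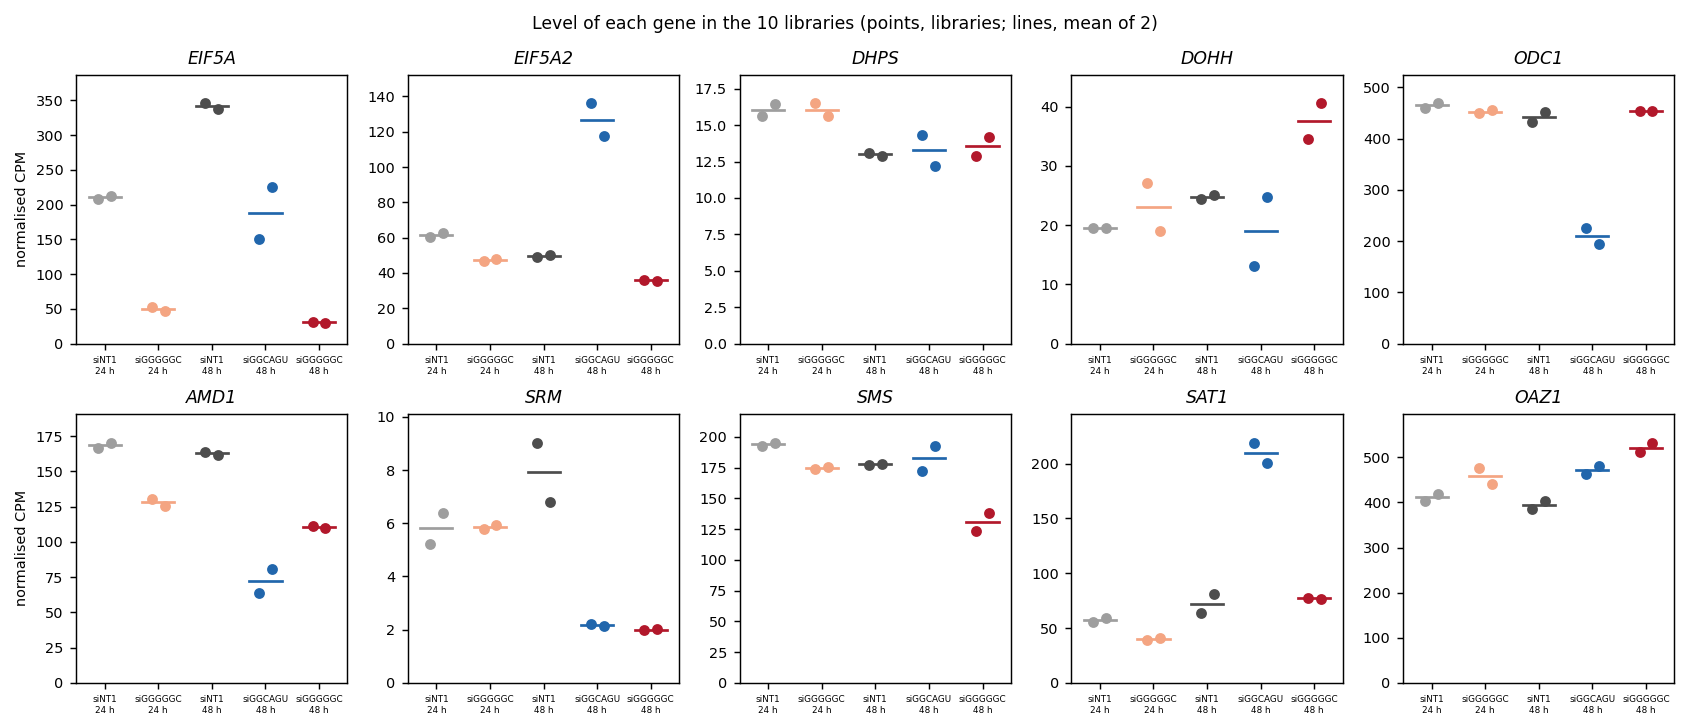
Levels of the 10 genes in normalised CPM, with 1 panel per gene and axes from 0; points are libraries and lines the mean of 2. EIF5A is low in both siGGGGGC groups, EIF5A2 and SAT1 are highest and ODC1 and AMD1 lowest with siGGCAGU, and SRM is near 2 CPM with both siRNAs at 48 h.

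Of the 9 genes other than EIF5A, 3 fell with siGGGGGC at 24 h (EIF5A2, AMD1 and SAT1) and 0 rose, beside 8.32% of all genes tested that were called lower and 10.6% higher. This count was 0 to 3 when libraries were left out in turn. At 48 h, 4 fell with siGGGGGC (EIF5A2, AMD1, SRM and SMS) and 2 rose (DOHH and OAZ1), beside 27.5% lower and 27.8% higher among all genes. With siGGCAGU, 3 fell (ODC1, AMD1 and SRM) and 3 rose (EIF5A2, SAT1 and OAZ1), beside 24.9% lower and 27.8% higher. Their median log2 fold change was -0.04, 0.04 and 0.02 in the 3 comparisons, beside 0.00, -0.01 and 0.02 over all genes. In either direction, 6 of the 9 passed with each siRNA at 48 h, near the 55.3% and 52.7% of all genes that did. Both comparisons at 48 h share the siNT1 libraries.

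**Figure D4:**
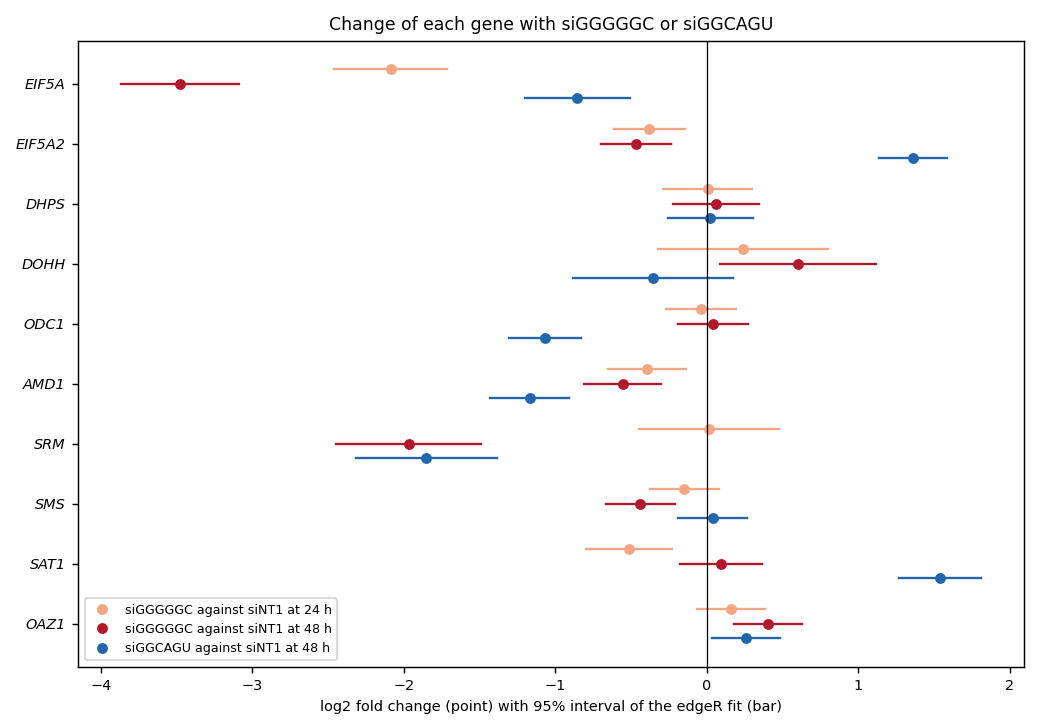
Log2 fold changes of the 10 genes against siNT1 (points) with the 95% interval of the edgeR fit (bars), for siGGGGGC at 24 h (orange), at 48 h (red) and siGGCAGU at 48 h (blue). EIF5A2 and SAT1 have blue points at 1.36 and 1.54, ODC1 has its blue point at -1.07 with the other points near 0, and SRM has the red and blue points near -1.97 and -1.85.

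Compared directly at 48 h, siGGGGGC and siGGCAGU differed in 6 of the 9 genes. EIF5A2, SMS and SAT1 were lower with siGGGGGC and DOHH, ODC1 and AMD1 were higher, beside 27.6% lower and 26.7% higher among all genes tested. The largest of these differences were EIF5A2 and SAT1, the latter at -1.45 ± 0.11 (edgeR adjusted p = 1.99e-08). DOHH differed by 0.96 ± 0.21 (adjusted p = 0.00104), which was 0.59 without siGGCAGU replicate 1 and 1.52 without replicate 2. DHPS, SRM and OAZ1 did not pass, with 95% intervals of -0.25 to 0.33, -0.68 to 0.45 and -0.08 to 0.37. EIF5A was lower with siGGGGGC by 2.62 on the log2 scale, given without a test.

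From 24 h to 48 h in siNT1 cells, 2 of the 9 genes passed the test. EIF5A2 fell by 0.32 ± 0.09 (edgeR adjusted p = 0.0255) and SAT1 rose by 0.34 ± 0.11 (adjusted p = 0.0422), beside 7.2% of all genes called lower and 9.37% higher. Leaving out single libraries gave 0 to 3 calls. Both calls were lost in most of those settings, with adjusted p-values over all alternatives of 0.00660 to 0.226 for EIF5A2 and 0.00156 to 0.308 for SAT1. The SAT1 value was 0.51 without siNT1 48 h replicate 1 and 0.16 without replicate 2. SRM had a change of 0.44 ± 0.16 that did not pass (edgeR adjusted p = 0.0783), but it passed without siNT1 48 h replicate 2 (0.64, adjusted p = 0.0120) and with no filter on low counts (0.52, adjusted p = 0.0279). DOHH, at 0.34 ± 0.21, passed with no filter (0.43) and with only the libraries compared (0.36). DHPS, at -0.30 ± 0.11, passed with upper quartile scaling (-0.35) and without siGGCAGU replicate 1 or 2 (-0.29 in both).

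The effect of siGGGGGC was also compared between the times, as the log2 fold change at 48 h minus that at 24 h. SRM was lower by 1.98 ± 0.26 in this comparison (edgeR adjusted p = 5.31e-05) and SAT1 higher by 0.61 ± 0.15 (adjusted p = 0.00729), beside 15.2% of all genes called lower and 13.4% higher. The other 7 genes did not pass, with adjusted p-values of 0.0958 (SMS) to 0.823. SMS, at -0.29 ± 0.13, passed with no filter on low counts (-0.43, adjusted p = 0.0228), with only the libraries compared (-0.29, adjusted p = 0.0421) and without siGGCAGU replicate 1 (-0.30, adjusted p = 0.0413) or 2 (-0.31, adjusted p = 0.0411). EIF5A2, for which the difference was -0.09 ± 0.13, had a 95% interval of -0.41 to 0.24. EIF5A was lower by 1.39 ± 0.20 in the same comparison, given without a test.

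Around these 10 genes, 6 lists fixed by function were examined, whose choice also came with earlier results known. Of 10 genes for polyamine regulation and breakdown, 3 rose and 0 fell with siGGGGGC at 24 h, where 10.6% of all genes tested were called higher and 8.32% lower. At 48 h, 3 rose and 1 fell with siGGGGGC, and 5 rose and 2 fell with siGGCAGU. Of all genes, 27.8% were called higher with each siRNA at 48 h, and 27.5% lower with siGGGGGC and 24.9% with siGGCAGU. SMOX, the spermine oxidase, stood at 0.643 to 4.54 CPM and rose with siGGGGGC by 1.37 ± 0.29 at 24 h and 1.86 ± 0.22 at 48 h (edgeR adjusted p = 0.00358 and 3.62e-06). OAZ2, another antizyme, stood at 29.8 and 32.3 CPM with siNT1 at 48 h and at 71.3 and 75.5 CPM with siGGGGGC, a rise of 1.24 ± 0.11 (adjusted p = 1.52e-07). With siGGCAGU it rose by 0.78 ± 0.11 (edgeR adjusted p = 1.89e-05). AZIN2, an antizyme inhibitor, rose by 1.16 ± 0.34 with siGGGGGC at 24 h (adjusted p = 0.0260), by 1.05 ± 0.22 at 48 h (adjusted p = 0.000881) and by 0.93 ± 0.22 with siGGCAGU (adjusted p = 0.00227). AZIN1, the other inhibitor, rose by 0.35 ± 0.10 with siGGCAGU (adjusted p = 0.0103), and is named here after its values were seen. AGMAT, which is annotated as an agmatinase, fell by 1.29 ± 0.18 with siGGGGGC at 48 h (edgeR adjusted p = 1.57e-05) and by 0.43 ± 0.16 with siGGCAGU (adjusted p = 0.0332). With siGGCAGU, PAOX, an oxidase of acetylated polyamines, rose by 2.79 ± 0.54 from counts of at most 23, (edgeR adjusted p = 0.000418). ARG2, which makes ornithine, fell by 1.28 ± 0.35 (adjusted p = 0.00616), with counts of 10 to 50.

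Of 7 transport genes, 6 were tested. With siGGGGGC 2 fell and 3 rose at 24 h and 2 fell and 2 rose at 48 h, and with siGGCAGU 1 fell and 3 rose. At 48 h 4 of 6 thus passed with each siRNA, near the 55.3% and 52.7% of all genes, and at 24 h 18.9% of all genes passed. SLC12A8 rose most at 48 h, from 0.864 and 0.904 CPM with siNT1 to 10.9 and 11.3 CPM with siGGGGGC and 11.4 and 10.3 CPM with siGGCAGU. The log2 fold changes were 3.64 ± 0.20 and 3.60 ± 0.20 (edgeR adjusted p = 1.49e-09 and 1.29e-09), after 1.07 ± 0.27 with siGGGGGC at 24 h (adjusted p = 0.0109). SLC3A2, the heavy chain of amino acid exchangers, rose by 1.11 ± 0.09 with siGGGGGC at 48 h (edgeR adjusted p = 6.06e-08). With siGGCAGU it rose by 0.99 ± 0.09 (adjusted p = 1.71e-07). SLC7A1, a carrier of arginine and ornithine, fell by 1.01 ± 0.16 with siGGGGGC at 48 h (edgeR adjusted p = 6.47e-05). With siGGCAGU it fell by 0.64 ± 0.16 (adjusted p = 0.00271). The siNT1 libraries stood at 133 and 81.0 CPM at 48 h.

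Of 7 tested genes of the methionine cycle and salvage, 1 fell with siGGGGGC at 24 h, beside 8.32% of all genes called lower. At 48 h 2 fell and 1 rose with siGGGGGC, and 3 fell and 3 rose with siGGCAGU, beside 27.5% of all genes lower and 27.8% higher with siGGGGGC, and 24.9% and 27.8% with siGGCAGU. None of the 7 changed by more than 1 on the log2 scale. MTAP was listed at 0 counts in all 10 libraries, as were EEF1G and MYCN of the lists below. Whether such a value comes from the cells or from the counting was not tested.

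Of a list of 14 genes for translation elongation and termination, 12 were tested, without EEF1A2 and EEF1G. The list was broader than its name and also held EIF5, EIF5B, EIF6, ABCE1, EEF1E1 and EEF2K. With siGGGGGC at 24 h 1 gene fell, EIF5, near the 8.32% of all genes called lower. At 48 h 5 fell and 2 rose with siGGGGGC, and 8 fell and 1 rose with siGGCAGU. Of all genes, 27.5% and 24.9% were called lower, and 27.8% higher in each comparison. EEF1E1, EEF2K and EIF5B were among those that fell with each siRNA at 48 h, and ABCE1 and EIF5 among those with siGGCAGU. EEF2K, the kinase that inhibits elongation factor 2, stood at 18.8 and 18.1 CPM with siNT1, 5.89 and 5.66 CPM with siGGGGGC and 7.80 and 8.53 CPM with siGGCAGU. Its changes were -1.68 ± 0.13 and -1.17 ± 0.12 (edgeR adjusted p = 3.10e-08 and 7.43e-07). EIF5B, which joins the ribosomal subunits at initiation, was lower by 1.11 ± 0.25 with siGGGGGC (edgeR adjusted p = 0.00173). With siGGCAGU it was lower by 0.76 ± 0.25 (adjusted p = 0.0190), from libraries that stood apart at 34.5 and 84.6 CPM.

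Of 5 genes for nuclear export and modification of eIF5A, 1 fell with siGGGGGC at 24 h, beside 8.32% of all genes called lower. At 48 h 3 fell and 1 rose with siGGGGGC, and 2 fell and 1 rose with siGGCAGU, while 55.3% and 52.7% of all genes passed in either direction. SIRT2, a deacetylase that acts on eIF5A, stood at 13.04 and 12.6 CPM with siNT1 and at 2.00 and 2.53 CPM with siGGGGGC at 24 h. Its log2 fold change was -2.50 ± 0.16 at 24 h and -2.22 ± 0.14 at 48 h (edgeR adjusted p = 7.74e-08 and 5.47e-09). HDAC6, another deacetylase of eIF5A, fell by 1.18 ± 0.19 with siGGGGGC at 48 h (adjusted p = 7.57e-05), where the acetyltransferase KAT2B rose by 1.01 ± 0.13 (adjusted p = 9.13e-06). XPO4, the exportin of eIF5A, fell by 1.01 ± 0.09 with siGGCAGU (edgeR adjusted p = 1.31e-07). As a description, the longest annotated 3′ UTR of SIRT2, of 802 bases, held 6 copies of GCCCCC. Those of HDAC6, KAT2B, XPO1 and XPO4 held 0. The part of these copies in the changes was not tested.

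Of 4 tested genes for the transcriptional control of ODC1, MYC moved most. MYC, which drives ODC1 transcription, stood at 98.5 and 90.8 CPM with siNT1 at 48 h, 32.8 and 35.5 CPM with siGGGGGC and 26.7 and 28.1 CPM with siGGCAGU. It fell by 1.47 ± 0.09 and by 1.79 ± 0.09 (edgeR adjusted p = 2.83e-09 and 3.14e-10), while ODC1 passed the test with siGGCAGU and had a change of 0.04 with siGGGGGC. In this list 1 gene fell with siGGGGGC at each time and 2 fell with siGGCAGU, beside 8.32%, 27.5% and 24.9% of all genes called lower at 24 h, at 48 h and with siGGCAGU. The E-box CACGTG, a palindrome that MYC binds, was present in the RefSeq promoter window of 300 bases of EIF5A2 (2 copies), DOHH (1) and SRM (1), and in 7.26% of 35116 windows. The windows of the other 7 genes, ODC1 among them, did not hold these letters. Only 1 window per gene was searched, so other promoter windows and the rest of each gene were not covered. Whether MYC acts on these genes was not tested.

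**Figure D5:**
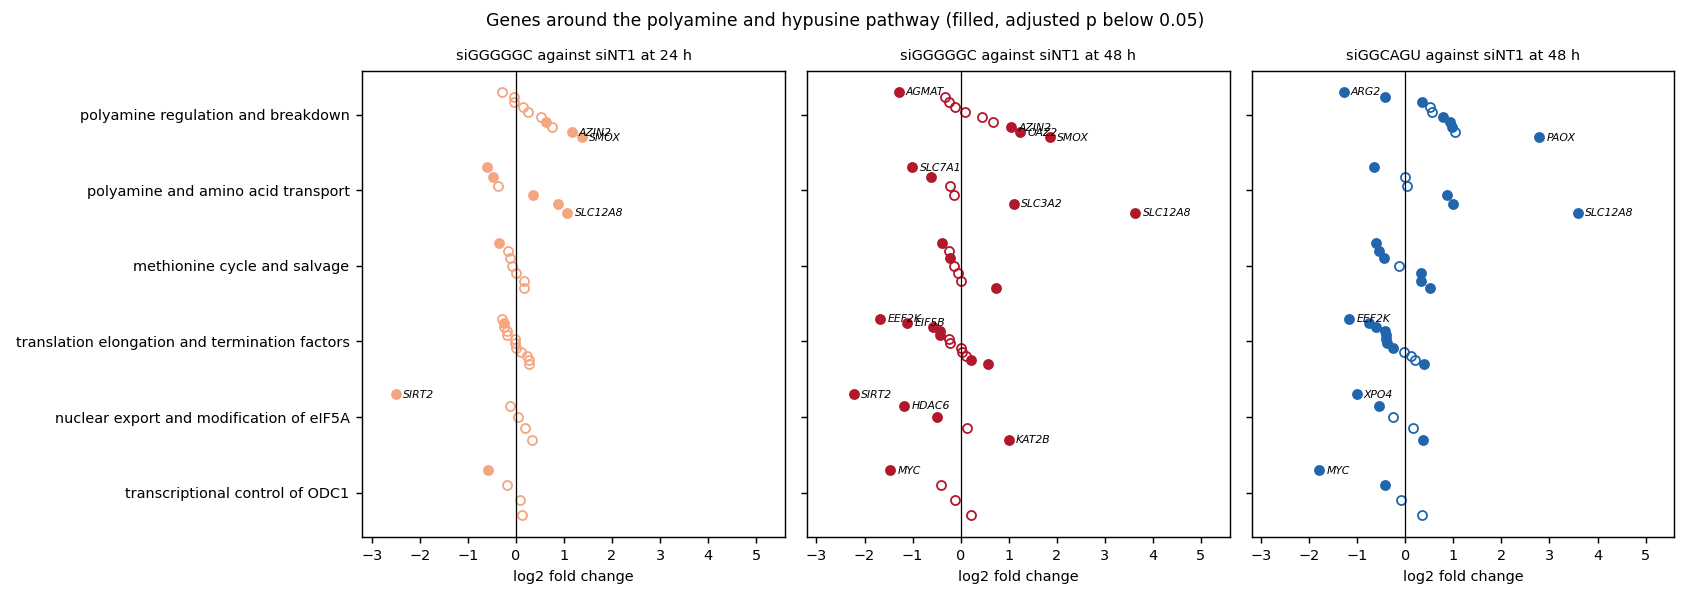
Log2 fold changes of the tested genes of the 6 lists against siNT1, in 3 panels for the siRNA comparisons; filled points have an adjusted p below 0.05, and filled points beyond 1 in either direction are named. SIRT2 lies at -2.50 and -2.22 with siGGGGGC, MYC at -1.47 and -1.79 at 48 h, and SLC12A8 at 3.64 and 3.60 at 48 h.

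Among 3505 genes with a mean normalised count of at least 1000, HMGA1, HSP90B1, CS and KIF1C were among those whose log2 CPM followed EIF5A most closely over the 10 libraries. Pearson's r was 0.996, 0.984, 0.979 and 0.9754, over libraries that fall into 5 groups, and is a description. HMGA1, a chromatin protein that the study also selected on its fall with siGGGGGC, had means of 194 and 77.8 CPM with siNT1 and siGGGGGC at 24 h, and of 236, 180 and 53.7 CPM with siNT1, siGGCAGU and siGGGGGC at 48 h. HSP90B1, a chaperone of the endoplasmic reticulum, followed the same order, from a mean of 189 CPM with siGGGGGC at 48 h to 511 CPM with siNT1 at 48 h.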

How the data were processed

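Total RNA of 10 HeyA8 libraries was sequenced as paired ends. Per the labels and methods, reads were trimmed by the authors (Trimmomatic), mapped to hg38 by TopHat or STAR and assigned to Ensembl genes by HTSeq, and the labels also name Bowtie2 and DESeq2. The deposited files hold the raw count of each gene, a whole number that was not normalised. The strand setting was not stated, and reads that match several places are usually left out by this counter, which lowers the counts of near-identical copies. The 4 deposited tables of comparisons hold base means, log2 fold changes and p-values of the authors and were not used. There were 0 entries that name no gene.

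Counts were fitted here with edgeR 4.0.16 (glmQLFit and glmQLFTest, TMM, R 4.3.3) in a single model of all 10 libraries and 5 groups, with 5 residual degrees of freedom, after filterByExpr kept 16905 genes. Benjamini-Hochberg adjustment ran over these genes. The p-values of glmQLFTest also borrow from the spread of all genes tested. The 95% intervals used the 5 residual degrees of freedom alone and are wider than these tests imply. DESeq2 1.42.0 was an alternative. The edgeR fit was tried on simulated counts for siGGGGGC against siNT1 at 48 h, with changed genes of a mean count of at least 50. The other steps, and changes in genes of lower counts, were not tried in this way. Symbols, 3′ UTRs and exon lengths came from GENCODE v44 on hg38 (98.9% of identifiers matched), and all 10 genes matched the RefSeq promoter table.

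The members and lists were chosen with earlier results of these data known. The rule for names took all 10 members, the genes of each list with the 2 largest falls and 2 largest rises beyond a log2 fold change of 1 that passed the test, and the 5 genes most like EIF5A, of which 1 is not reported here. Intervals and p-values cover the spread between these libraries only.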

Additional observations from a re-analysis of the deposited data

Results flagged for a closer look

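The effect of siGGGGGC against siNT1 differed between 48 h and 24 h, by a test of that difference, in SRM and SAT1. The values of EIF5A are given beside them as a description, without a test, because its fall selected it. For SRM the log2 difference of the effects was -1.98, with a change of 0.01 at 24 h and -1.97 at 48 h. Its siNT1 libraries stood at 9.03 and 6.79 CPM at 48 h, and at 24 h at 5.24 and 6.40 CPM. For SAT1 the difference was 0.61, with a change of -0.52 at 24 h and 0.09 at 48 h. For EIF5A it was -1.39, with changes of -2.09 and -3.48, and its siNT1 level was higher at 48 h than at 24 h. The medium was replaced before 48 h only, and its part in these differences cannot be told apart from time. Groups of 2 libraries are too small for a test of single outlying libraries.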

How the results depend on the processing

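Every alternative setting was tried for the 10 genes in 6 comparisons, which gave 1080 values. Of these, 995 kept their direction and their side of the threshold, 38 lost a call, 15 gained one and 32 changed sign. The sign changes were of values that did not pass the test. The counts include the values of EIF5A, which was chosen by its fall. Its kept calls with siGGGGGC follow from that choice and lend the counts no weight. Leaving out a library leaves an arm with 1 library, which is then assumed to vary like the others. Over the 10 settings without one library each, the number of the 9 genes past the test was 0 to 3 for siGGGGGC at 24 h, 5 to 6 at 48 h, 5 to 6 for siGGCAGU, 6 for siGGGGGC against siGGCAGU, 0 to 3 for siNT1 over time and 2 to 3 for the difference of the siGGGGGC effect between times. Over all genes the calls at 24 h were 3203, and 1471 to 3867 without single libraries and 5105 with only the libraries compared. Over time in siNT1 they were 2801, and 470 to 3733 without single libraries.

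Without a filter on low counts, which shifted the median of all genes by -0.12 for siGGGGGC at 48 h and by -0.13 for the difference between times, the sign changed for DHPS (-0.058 with siGGCAGU, -0.0604 with siGGGGGC at 48 h, -0.00238 between the siRNAs and -0.0772 for the difference between times), ODC1 (-0.0798 at 48 h, -0.054 for the difference and 0.0108 over time in siNT1), SAT1 (-0.0271 at 48 h), SMS (-0.0419 with siGGCAGU), AMD1 (0.0334 over time) and OAZ1 (0.0227 over time). For siGGGGGC at 24 h, DHPS was -0.035 and SRM -0.0252 with upper quartile scaling, -0.0108 and -0.00119 with a mean count of at least 50, and -0.0132 and -0.00263 with only the libraries compared. The last setting gave -0.0223 for DHPS and -0.0104 for SMS with siGGCAGU. Without single libraries, the values that changed sign ranged as follows. With siGGGGGC at 24 h, DHPS was -0.031 to 0.0547, DOHH -0.0321 to 0.48 and SRM -0.126 to 0.176. With siGGGGGC at 48 h, DHPS was -0.0114 to 0.121, ODC1 -2.98e-05 to 0.0653 and SAT1 -0.079 to 0.273. With siGGCAGU, DHPS was -0.0893 to 0.141, DOHH -0.93 to 0.00127 and SMS -0.0475 to 0.114. Between the siRNAs DHPS was -0.0876 to 0.146, and for the difference between times -0.0243 to 0.107. The cause of these changes was not tested.

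No pairing of the samples by replicate number was stated, and the numbers were not used as pairs in the main fit. The deviations of same-numbered libraries correlated at -0.29 to 0.11 over 10 pairs of groups. These values cannot decide whether wells were set up in pairs, since the numbers may be assigned differently in each group. With the replicate block, 1 in place of 2 of the 9 genes passed over time in siNT1, where SAT1 was lost (0.33, edgeR adjusted p = 0.0591), and the counts of the other comparisons stayed at 3, 6, 6, 6 and 2. A crossed pairing, added after seeing the data, gave 6 of the 9 genes and 9269 of all genes for siGGGGGC at 48 h, and 6 and 8831 for siGGCAGU. SRM is limited by its counts of 44 to 308.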
